A study of Mus musculus with 6 samples.

Results

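The genes described here are 10 genes of the NF-kB feedback loop and its inflammatory output, taken by symbol from the deposited expression table. They are the cytokine genes Tnf, Il6, Il1a and Lif, the cyclooxygenase gene Ptgs2, the inhibitor genes Nfkbia, Tnfaip3 and Birc3, and the subunit genes Relb and Nfkb2. The table holds 21958 genes, and each of the 10 stood in it once. The rule names genes by symbol and sets no threshold on a measured value.

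RNA was sequenced from MC38 tumors grown in wild-type male C57BL/6J mice that were 6 to 8 weeks old. MC38 is a mouse colon carcinoma line, and its cells were injected under the skin of the right flank. The 3 vehicle tumors received saline and the 3 Mn-N/C tumors received Mn-N/C, a manganese single-atom nanozyme, at 70 mg/kg, in both cases as 50 µL into the tumor every 3 days from a volume of about 60 mm3. The methods for the tumor models give an end point of 800 to 1000 mm3, while those for RNA sequencing give no volume or day. From each of the 6 samples 1 library was made, with saline as the only control. Since the labels leave out whether the 6 libraries stem from 6 animals, the p-values cover the spread between these samples and nothing more. Whole tumor holds cancer, stromal and immune cells, so fewer cells of a type and less RNA per cell cannot be told apart.

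NF-kB is a family of paired transcription factors held in the cytoplasm by IkB proteins until a receptor signal removes the inhibitor. In the canonical branch the kinase complex IKK marks IkBα (Nfkbia) for degradation and frees RelA with p50. In the noncanonical branch the kinase NIK drives the cutting of p100 (Nfkb2) into p52, which pairs with RelB. Many NF-kB targets are themselves inhibitors or subunits of the pathway, so their mRNA is widely read beside that of the cytokines it induces. In a tumor these cytokines come from cancer cells, macrophages and fibroblasts alike.

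The total counts ran from 14988588 to 18961134 per library, 16762 genes had at least 1 read, and 12800 genes were tested after the filter on low counts. Of the 10 genes, 9 were tested and Il6 was not. No gene of the 12800 passed an adjusted p of 0.05 in the edgeR quasi-likelihood test (0% called), while 2682 had an unadjusted p under 0.05 and DESeq2 called 787 of the 8828 genes to which it gave an adjusted p (8.91%). Without the second vehicle library, edgeR called 583. The median log2 fold change over all tested genes was 0.00. Across genes, the edgeR log2 fold change rose with GC content (Spearman's rho 0.49) and fell with gene length (rho -0.26), as a description over genes that are not independent replicates. The vehicle libraries had rho values of -0.25, 0.17 and -0.54 between GC content and a gene's deviation from its mean, and the Mn-N/C libraries 0.40, 0.33 and 0.21. Of 9 epithelial markers listed for the cancer cells, only Cdh1 (E-cadherin) passed the filter, at 18.1 to 39.5 CPM, and Cdx2, an intestinal transcription factor, was at 0 in all 6 libraries.

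Promoters were read from the RefSeq table of GRCm38.p6, as 250 bases before and 50 after each start site, and searched on both strands for the kB consensus, the element that NF-kB pairs bind. The table held promoters for 9 of the 10 genes, without one for Relb. At least 1 match lay in the promoters of 4 of these 9 genes (44.4%), namely Il6, Nfkbia, Tnfaip3 and Nfkb2, against 1388 of 27025 genes (5.14%) and 1480 of 32851 promoters (4.51%) in the whole table. The share was not particular to the members. Among the lists of related genes described below, 7 of 13 other inhibitor genes (53.8%), 1 of 2 other subunit genes (50.0%) and 9 of 25 other target genes (36.0%) had a match. The remaining lists had 0 to 18.2%. The windows of Tnf, Il1a, Birc3, Ptgs2 and Lif held no match, which says only that the consensus was not in those letters. The sequences with a match are shown because they place cytokine, inhibitor and subunit genes beside each other. Each runs 5′ to 3′ in the direction of the gene and carries its matches in capitals. The Nfkb2 window on the plus strand (chr19:46304487-46304786) held overlapping matches on both strands from 39 bases before the start site and a further match from 11 bases before it.
Nfkb2: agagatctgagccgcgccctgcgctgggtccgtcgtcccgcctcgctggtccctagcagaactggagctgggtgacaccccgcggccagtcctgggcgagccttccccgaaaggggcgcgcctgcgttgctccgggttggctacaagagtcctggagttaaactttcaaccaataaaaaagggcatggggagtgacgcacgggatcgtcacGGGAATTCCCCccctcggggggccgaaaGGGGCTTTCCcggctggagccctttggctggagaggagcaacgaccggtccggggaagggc
The Nfkbia window on the minus strand (chr12:55492598-55492897) held 1 match on the opposite strand, from 29 bases before the start site.
Nfkbia: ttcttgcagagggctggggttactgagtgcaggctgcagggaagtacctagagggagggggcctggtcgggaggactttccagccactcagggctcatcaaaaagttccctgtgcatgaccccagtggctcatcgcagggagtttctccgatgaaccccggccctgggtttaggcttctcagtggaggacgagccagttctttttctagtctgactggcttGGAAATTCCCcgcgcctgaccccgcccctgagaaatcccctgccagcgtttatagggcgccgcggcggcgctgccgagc
The Tnfaip3 window on the minus strand (chr10:19015361-19015660) held matches from 125 and from 12 bases before the start site.
Tnfaip3: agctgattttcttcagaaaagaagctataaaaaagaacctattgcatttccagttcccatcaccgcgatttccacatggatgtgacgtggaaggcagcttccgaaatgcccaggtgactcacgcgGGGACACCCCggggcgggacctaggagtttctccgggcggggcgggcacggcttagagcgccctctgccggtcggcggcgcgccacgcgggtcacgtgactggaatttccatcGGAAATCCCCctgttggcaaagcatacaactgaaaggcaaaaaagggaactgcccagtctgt
The Il6 window on the plus strand (chr5:30012864-30013163) held 1 match from 44 bases before the start site.
Il6: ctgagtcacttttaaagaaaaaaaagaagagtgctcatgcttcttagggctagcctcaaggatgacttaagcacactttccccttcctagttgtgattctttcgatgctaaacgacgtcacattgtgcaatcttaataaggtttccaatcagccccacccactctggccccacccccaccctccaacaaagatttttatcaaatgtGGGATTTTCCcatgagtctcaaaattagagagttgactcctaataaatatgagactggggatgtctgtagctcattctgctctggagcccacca
A match is a description of the letters and not a measured binding site. Nfkb2 had matches in 2 further windows at later start sites, which share 1 of them.

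The mRNAs of inflammatory genes often carry AU-rich elements near their 3′ end, which decay factors such as tristetraprolin read. In the longest annotated 3′ end of each gene (GENCODE M21, GRCm38), the pentamer ATTTA was counted, together with the longer AU-rich nonamer built around it. Ptgs2 held 14 pentamers, Il6 10, Tnf 8, Birc3 and Lif 7 each, Tnfaip3 5, Il1a 3, Nfkbia 2, Nfkb2 1 and Relb 0, where the median over 19921 genes was 1. At least 1 nonamer was found in 7 of the 10 genes, with 5 in Tnf, 4 in Birc3 and in Ptgs2, 3 in Tnfaip3 and in Lif, and 1 in Nfkbia and in Nfkb2. Of the 19921 genes 17.1% held at least 1 nonamer and 1.53% held at least 3. The windows of 30 bases with the most pentamers are shown for genes of 3 roles, with the pentamers in capitals.
Tnf, chr17:35199678-35199707, minus strand: ttATTTAttATTTATTTAttATTTATTTAt
Birc3, chr9:7857119-7857148, minus strand: ATTTATTTATTTATTTAaaagATTTATTTA
Ptgs2, chr1:150105796-150105825, plus strand: atATTTATTTATTTAtgtgaagaATTTAat
The pentamers overlapped in runs in all 3 windows, while those of the subunit genes Relb and Nfkb2 numbered 1 at most.

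Levels were compared between genes only as FPKM, which divides counts by gene length and library total. Nfkb2 had the highest level of the 10, with a mean of 64.4 FPKM over the 6 libraries (range 51.5 to 71.3), and stood at rank 640 of 21958 genes. Nfkbia followed at 53.1 FPKM (43.2 to 66.1, rank 821), with a range that overlapped that of Nfkb2 although it was the lower of the pair in 6 of 6 libraries. A gap separated these from Relb at 9.36 FPKM (8.27 to 10.2). Birc3 at 5.95 FPKM (5.02 to 6.94) and Ptgs2 at 5.57 FPKM (4.59 to 6.60) did not differ beyond their spread. Lif had 2.89 FPKM (2.32 to 3.84) and Tnfaip3 had 1.46 FPKM (1.22 to 2.00), and neither range touched its neighbours. The other 3 cytokines were the lowest, with overlapping ranges: Il1a had 0.544 FPKM (0.368 to 0.824), Tnf 0.483 FPKM (0.183 to 1.03) and Il6 0.261 FPKM (0.101 to 0.652, rank 12314). The subunit and inhibitor genes Nfkb2 and Nfkbia were thus above each of the 4 cytokines in every library.

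**Figure D1:**
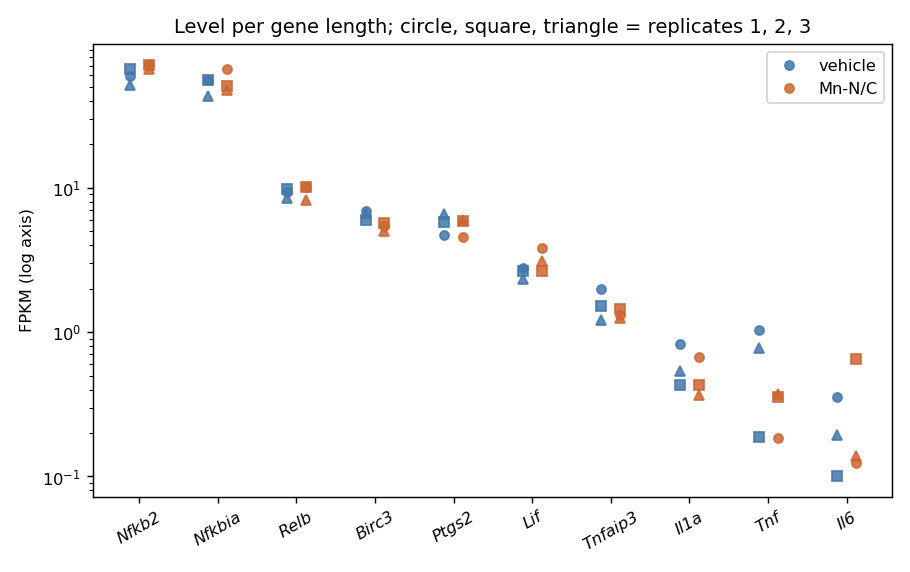
Level of the 10 genes in each library, as FPKM on a log axis, with vehicle in blue and Mn-N/C in orange and 1 symbol per replicate number. Nfkb2 (mean 64.4 FPKM) and Nfkbia (53.1 FPKM) lie far above Il1a, Tnf and Il6, which are at or below 1.03 FPKM in every library and whose points overlap.

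The comparison of Mn-N/C with vehicle tumors asked whether NF-kB output differed after treatment with the nanozyme. None of the 9 tested genes passed the adjusted threshold, and the mean was higher with Mn-N/C in 4 and lower in 5, with a median log2 fold change of -0.03. The lowest adjusted p, in edgeR, was that of Birc3, at 0.209. At an unadjusted p under 0.05, Nfkb2 was higher and Birc3 was lower, where 9.82% of all tested genes were higher and 11.1% lower (21% in either direction). Birc3 was the 1 gene of the 9 whose groups did not overlap, with Mn-N/C below vehicle, where the groups did not overlap in 26.4% of all tested genes, with Mn-N/C below in 12.1% and above in 14.2%. The counts of members were near that background. DESeq2 called none of the 5 members to which it gave an adjusted p, Nfkb2, Birc3, Nfkbia, Relb and Ptgs2.

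**Figure D2:**
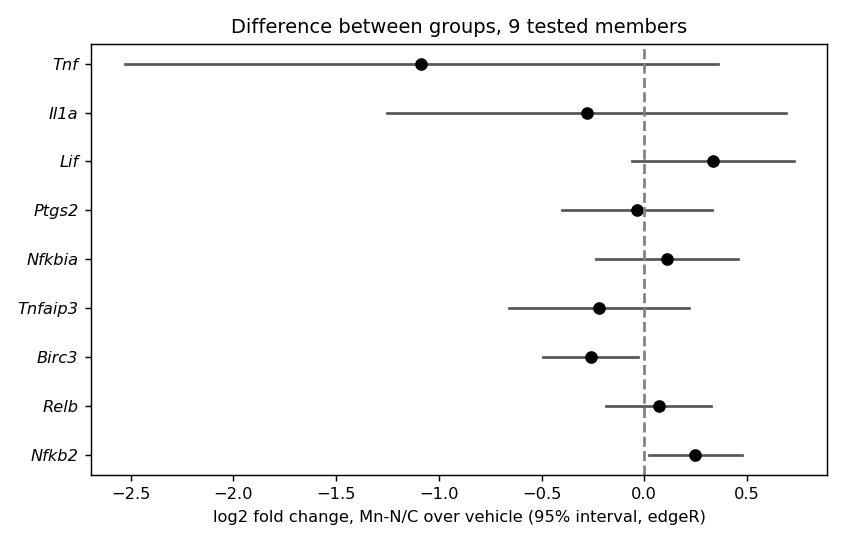
The log2 fold change of the 9 tested genes, Mn-N/C over vehicle, from edgeR, as points with 95% intervals on a linear axis. The interval is widest for Tnf (-2.53 to 0.36), and only those of Birc3 (-0.49 to -0.03) and Nfkb2 (0.02 to 0.48) do not cross 0, before adjustment over genes.

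Tnf encodes tumor necrosis factor, a cytokine that both activates NF-kB and is induced by it. The vehicle libraries held 31, 5 and 19 Tnf reads and the Mn-N/C libraries 5, 11 and 11, each in the order of replicates 1 to 3, or 1.65, 0.306 and 1.27 CPM against 0.307, 0.578 and 0.618 CPM. The first and the third vehicle library were above every Mn-N/C library, and the second was at the level of the lowest Mn-N/C library, so the groups overlapped. The means were 1.07 ± 0.691 CPM (SD, n = 3) and 0.501 ± 0.170 CPM, with a log2 fold change of -1.09 (SE 0.629, 95% interval -2.53 to 0.36, adjusted p = 0.348 in edgeR). The value moved to -1.51 without vehicle replicate 2 (adjusted p = 0.101 in edgeR) and to -0.61 without vehicle replicate 1. Counting error alone was wide here, since a count of 5 has an exact Poisson 95% interval of 1.62 to 11.7 and a count of 31 one of 21.1 to 44.0. These intervals cover counting error only. The file places Tnf on chromosome 17 from 35418357 to 35420983 and names no build for this or the positions that follow.

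Il6 encodes interleukin-6, a cytokine that signals through gp130 and STAT3. Its counts were 16, 4 and 7 in the vehicle and 5, 30 and 6 in the Mn-N/C libraries, or 0.850, 0.245 and 0.466 CPM against 0.307, 1.58 and 0.337 CPM. The second Mn-N/C library was the highest and the others lay within the vehicle range. The group means were 0.520 ± 0.306 CPM and 0.740 ± 0.724 CPM (SD, n = 3). On the log2(CPM + 0.5) scale the groups differed by 0.18, with p = 0.8 in an exact permutation test (two-sided), which cannot go below 0.1 with 3 against 3. With no filter on low counts, edgeR gave a log2 fold change of 0.50 (SE 0.751, 95% interval -1.16 to 2.16, adjusted p = 0.766). The second Mn-N/C library and the first vehicle library, where Il6 was highest, also held the highest summed CPM of the macrophage markers (722 and 670, against 413 to 600 in the others), T cell markers (19.8 and 18.2, against 6.06 to 11.9) and fibroblast markers (8567 and 6310, against 3622 to 4568). All 10 macrophage markers, 7 of 8 T cell markers and all 10 fibroblast markers passed the filter. Dendritic, NK cell, mast cell and endothelial markers were also highest in these libraries. So were the 9 epithelial markers listed for the cancer cells (41.3 and 34.9, against 18.9 to 32.7), of which only Cdh1 passed the filter. Monocyte and neutrophil markers were not highest in both. Monocyte markers were at 308 and 385 there, in the same order, and highest at 419 in the third vehicle library. Neutrophil markers were at 28.5 and 19.6, against 21.2 in the second vehicle library. Skeletal muscle, adipocyte, B cell and keratinocyte markers did not share the pattern either. The part of these cells in the Il6 value was not tested. The gene lies on chromosome 5 from 30218112 to 30224979 in the file.

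Il1a encodes interleukin-1α, an alarmin that also acts from the cell surface. It had 1.59, 0.857 and 1.07 CPM in the vehicle libraries and 1.35, 0.840 and 0.731 CPM in the Mn-N/C libraries, from counts of 13 to 30. The ranges overlapped, with the first replicate highest in each group. The log2 fold change was -0.28 (SE 0.423, 95% interval -1.25 to 0.69, adjusted p = 0.745 in edgeR), and it was 0.01 once each library's GC trend was removed. The gene lies on chromosome 2 from 129141530 to 129151892 in the file.

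Lif encodes leukemia inhibitory factor, a cytokine of the IL-6 family. It had 11.8, 11.5 and 10.1 CPM with vehicle and 17.0, 11.5 and 13.7 CPM with Mn-N/C, from counts of 151 to 278. The first and the third Mn-N/C library were above every vehicle library, and the second lay among them. The means were 11.1 ± 0.949 CPM and 14.1 ± 2.79 CPM (SD, n = 3), a log2 fold change of 0.33 (SE 0.172, 95% interval -0.06 to 0.73, adjusted p = 0.297 in edgeR). Without the first Mn-N/C library the value was 0.17, and without the second it was 0.46. The gene lies on chromosome 11 from 4207557 to 4222514 in the file.

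Ptgs2 encodes cyclooxygenase-2, the inducible enzyme that starts prostaglandin synthesis. It had 21.0, 26.4 and 30.2 CPM in the vehicle libraries and 21.5, 26.7 and 27.5 CPM in the Mn-N/C libraries, on chromosome 1 from 149975782 to 149983978 in the file. The Mn-N/C values lay wholly within the vehicle range. Its log2 fold change was -0.03 (SE 0.159, 95% interval -0.40 to 0.33, adjusted p = 0.923 in edgeR). With the GC trend removed it was 0.29.

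**Figure D3:**
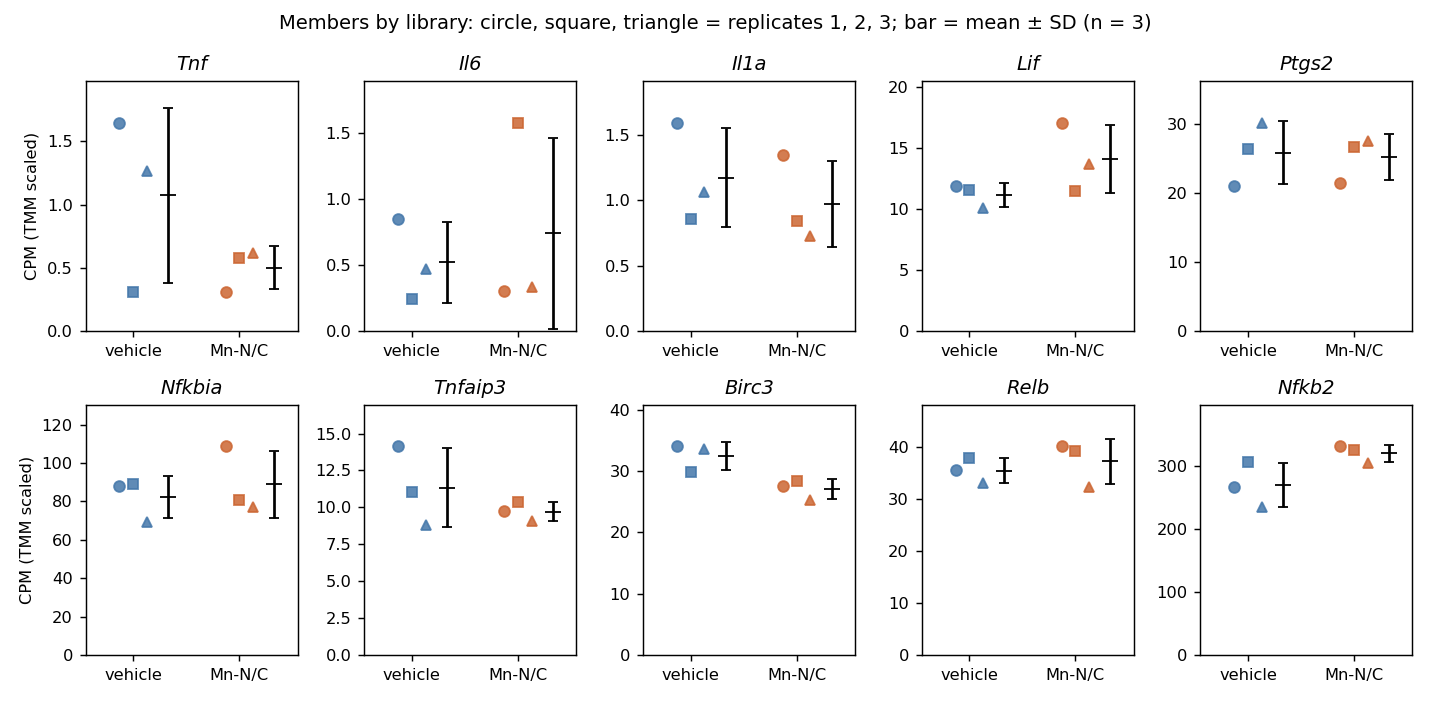
CPM of each gene (linear axis from 0) in the 3 vehicle (blue) and 3 Mn-N/C (orange) libraries, with black bars at the mean ± SD. The groups overlap in every panel but that of Birc3, where the 3 Mn-N/C libraries lie at 25.3 to 28.5 CPM and the 3 vehicle libraries at 29.8 to 34.0 CPM.

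Nfkbia encodes IkBα, the inhibitor that NF-kB itself induces and that returns it to the cytoplasm. It had 88.2, 89.3 and 69.5 CPM with vehicle and 109, 81.0 and 76.9 CPM with Mn-N/C, from counts of 1043 to 1773. The first Mn-N/C library was the highest of the 6, and the other Mn-N/C libraries lay inside the vehicle range. The log2 fold change was 0.11 (SE 0.151, 95% interval -0.24 to 0.45, adjusted p = 0.718 in edgeR), and it was -0.06 without the first Mn-N/C library. The gene lies on chromosome 12 from 55536195 to 55539432 in the file.

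Tnfaip3 encodes A20, which edits ubiquitin chains and dampens signalling to IKK. It had 14.1, 11.02 and 8.79 CPM in the vehicle libraries and 9.75, 10.3 and 9.05 CPM in the Mn-N/C libraries, on chromosome 10 from 18876658 to 18891405 in the file. The 3 Mn-N/C values lay within the vehicle range, and the coefficient of variation was 23.7% with vehicle and 6.65% with Mn-N/C. The log2 fold change was -0.22 (SE 0.191, 95% interval -0.66 to 0.22, adjusted p = 0.535 in edgeR). It was -0.02 without the first vehicle library, the highest of the 6.

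Birc3 encodes cIAP2, a ubiquitin ligase that acts in TNF receptor complexes and takes part in the degradation of NIK. It had 34.0, 29.8 and 33.6 CPM with vehicle and 27.6, 28.5 and 25.3 CPM with Mn-N/C, from counts of 450 to 641. Every Mn-N/C library was below every vehicle library. The means were 32.5 ± 2.33 CPM and 27.1 ± 1.63 CPM (SD, n = 3), a ratio of 0.834 (95% interval 0.710 to 0.980). On the log2 scale the edgeR value was -0.26 (SE 0.101), with an unadjusted p of 0.0318 and an adjusted p of 0.209. Without 1 library it stayed between -0.31 and -0.21, and its unadjusted p in edgeR was above 0.05 without vehicle replicate 1 or 3 or Mn-N/C replicate 1 or 3. Likewise, with the GC trend removed it was -0.18 (unadjusted p = 0.0946 in edgeR). Birc3 lies on chromosome 9 from 7848700 to 7873187 in the file.

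Relb encodes RelB, the partner of p52 in the noncanonical branch. It had 35.5, 37.9 and 33.04 CPM in the vehicle libraries and 40.2, 39.3 and 32.3 CPM in the Mn-N/C libraries, on chromosome 7 from 19340142 to 19363363 in the file. The third Mn-N/C library was the lowest of the 6 and the first the highest, so the groups overlapped. Its log2 fold change was 0.07 (SE 0.111, 95% interval -0.18 to 0.32, adjusted p = 0.757 in edgeR).

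Nfkb2 encodes p100, the precursor of p52. It had 267.8, 306.4 and 235.8 CPM with vehicle and 331.6, 325.2 and 305.5 CPM with Mn-N/C, from counts of 3540 to 6194. The second vehicle library was just above the third Mn-N/C library, and the other values were separate. The means were 270.0 ± 35.4 CPM and 321 ± 13.6 CPM (SD, n = 3), a ratio of 1.19 (95% interval 1.02 to 1.39). The log2 fold change was 0.25 (SE 0.0991), with an unadjusted p of 0.0357 and an adjusted p of 0.214 in edgeR. Without the second vehicle library it was 0.36 (adjusted p = 0.0508 in edgeR), and without the third 0.16. Its unadjusted p in edgeR was above 0.05 without vehicle replicate 1 or 3 or Mn-N/C replicate 1 or 2. With the GC trend removed it was 0.14 (unadjusted p = 0.118 in edgeR), and at 59.4% Nfkb2 had the highest GC content of the 10. Nfkb2 lies on chromosome 19 from 46292759 to 46300824 in the file.

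Ratios to a related gene within a library do not depend on how libraries are scaled. A library's trend with GC content need not cancel in them, and they were not recomputed with that trend removed. The ratio of Nfkb2 to Nfkb1, which encodes the canonical precursor p105, was 4.14, 4.70 and 3.91 with vehicle and 4.59, 5.02 and 4.83 with Mn-N/C in FPKM, a log2 difference of 0.18. The ratio of Birc3 to Birc2, the gene of cIAP1, was 1.05, 1.26 and 0.852 against 1.21, 1.30 and 1.09, a log2 difference of 0.21 in the direction opposite to that of Birc3 alone. Birc2 itself had 29.2 ± 7.23 CPM with vehicle and 20.7 ± 0.553 CPM with Mn-N/C (log2 fold change -0.50, SE 0.175). Birc2 and Birc3 are neighbouring, similar genes, and reads that fit both could be counted to either. Relb stood at 0.247, 0.228 and 0.225 of Rela, the gene of the main canonical subunit, with vehicle and at 0.263, 0.243 and 0.217 with Mn-N/C. Ptgs2 stood at 0.339, 0.360 and 0.456 of Ptgs1, the constitutive cyclooxygenase gene, against 0.282, 0.425 and 0.348. In two-sided exact permutation tests the 4 ratios had p = 0.2 for Nfkb2, 0.3 for Birc3, 0.7 for Relb and 0.5 for Ptgs2, or 0.6, 0.6, 0.7 and 0.667 adjusted over the 4. All 4 ratios overlapped between the groups.

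**Figure D4:**
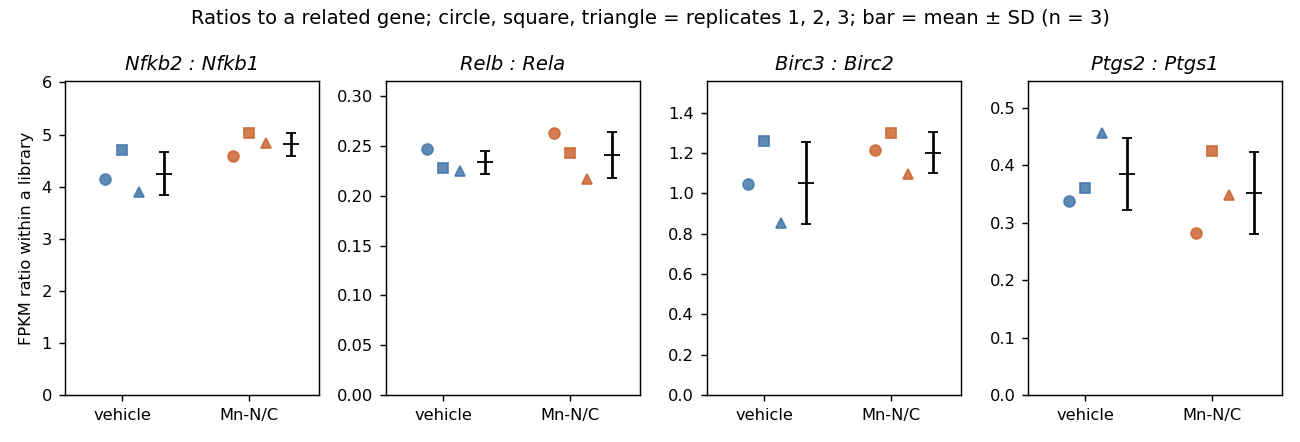
FPKM ratio of Nfkb2 to Nfkb1, Relb to Rela, Birc3 to Birc2 and Ptgs2 to Ptgs1 in each library (linear axes from 0), with black bars at the mean ± SD over 3 libraries. The Nfkb2 ratio lies at 3.91 to 4.70 with vehicle and at 4.59 to 5.02 with Mn-N/C, and the groups overlap in all 4 panels.

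The spread over the 6 libraries, which includes any difference between the groups, was widest for the low cytokines. The highest library stood at 6.43 times the lowest for Il6, 5.38 times for Tnf and 2.18 times for Il1a, but at 1.24 times for Relb, 1.35 for Birc3 and 1.41 for Nfkb2. Tnf, Il1a, Tnfaip3 and Birc3 were each highest in the first vehicle library, while Nfkbia, Relb, Nfkb2 and Lif were each highest in the first Mn-N/C library. Most cell marker lists had a higher summed CPM in that vehicle library than in that Mn-N/C library. Macrophage markers were at 670 against 535 and fibroblast markers at 6310 against 3831. T cell markers were at 18.2 against 8.95 (6.06 to 19.8 over the 6) and adipocyte markers at 59.5 against 16.2 (16.2 to 59.5). Of these, macrophage, fibroblast and T cell markers were highest in the second Mn-N/C library. Keratinocyte markers went the other way, at 174 against 207, as did neutrophil markers (19.6 against 20.1) and skeletal muscle markers. The part of these cells in the member values was not tested. Neutrophil markers were low throughout, at 17.0 to 28.5 summed CPM over 10 genes, with 7 tested. Skeletal muscle markers, which mark tissue beside the tumor, ranged from 12.4 to 731 summed CPM and were highest in the second Mn-N/C library.

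**Figure D5:**
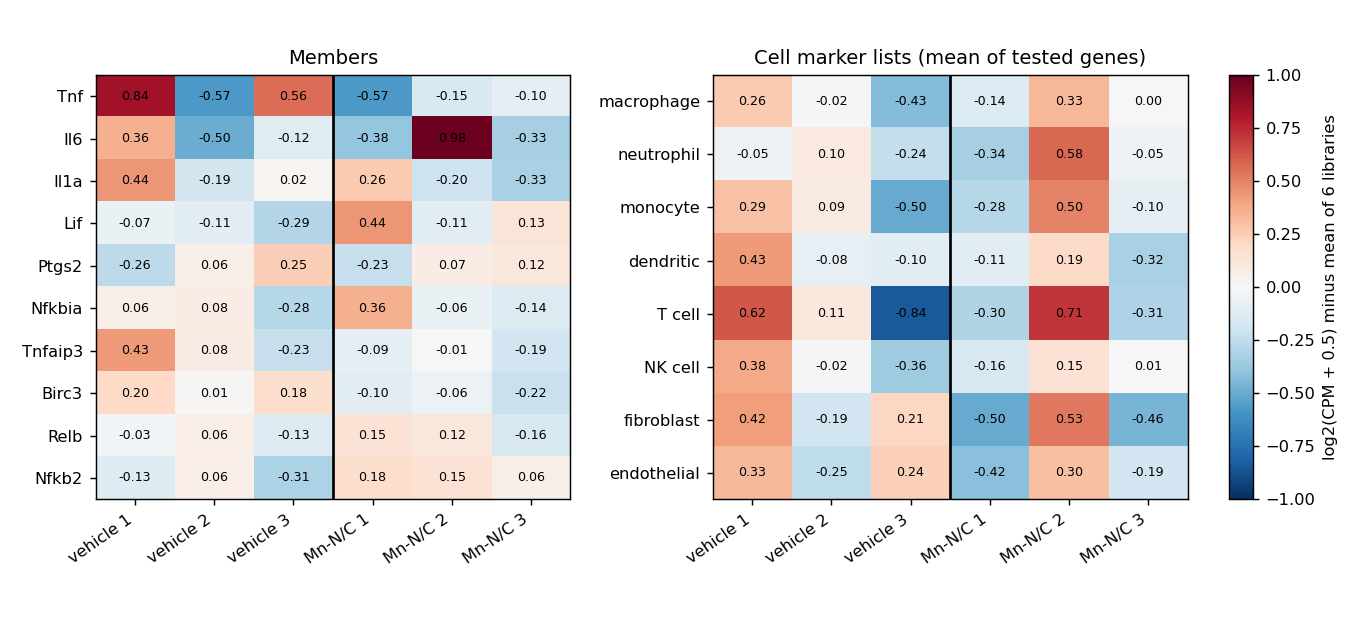
Left, each gene's log2(CPM + 0.5) minus its mean over the 6 libraries. Right, the mean of that deviation over the tested genes of 8 cell marker lists, both on one color scale with a black line between the groups, in which Il6 reaches 0.98 in the second Mn-N/C library, where the T cell markers are at 0.71.

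The genes most like the mean profile of the 9 tested genes over the 6 libraries, among 10359 others, were Dnajc16 (r = 0.99), Slc50a1 (0.99), Zfp646 (0.97), Bicd2 (0.96) and Dnajc14 (0.96), given as a description of these libraries. Each of the 5 had a log2 fold change between -0.03 and -0.02, which their choice by likeness to this profile largely fixes and which is no separate result.

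The other genes of the pathway were counted over lists of named genes. Of all 12800 tested genes, 9.82% were higher and 11.1% lower at an unadjusted edgeR p under 0.05 (21% in either direction). Of the other 3 subunit genes, none had an unadjusted p under 0.05, and Rel, the lymphoid subunit c-Rel, had 19.4 ± 1.49 CPM with vehicle and 16.5 ± 1.29 CPM with Mn-N/C (log2 fold change -0.23, SE 0.120). Nfkb1 stood at 0.07 and Rela at 0.02. Of 18 other inhibitor genes, 1 stood higher and 1 stood lower with an unadjusted edgeR p under 0.05. The first was Otulin, a linear-ubiquitin protease (0.24, SE 0.0975), and the second Tax1bp1, a partner of A20 (-0.63, SE 0.219), which DESeq2 called. Itch, a ubiquitin ligase, stood at -0.25 (SE 0.119) and Otud7b, a deubiquitinase, at 0.0079 (SE 0.0648). The median was -0.03. Of 31 genes of IKK and its upstream adaptors, 1 was higher and 4 lower, with a median of -0.06. The lower genes included Birc2, Tab2 and Tab3, adaptors of the kinase TAK1, at -0.31 (SE 0.0809) and -0.54 (SE 0.205). Tab2 was called by DESeq2. Xiap, an apoptosis inhibitor and the fourth of them, had 174 ± 53.3 and 126 ± 10.8 CPM (-0.46, SE 0.194).

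Of 21 other inflammatory cytokine genes, 12 were tested, with 1 gene higher and 0 lower (unadjusted edgeR p under 0.05) and a median of 0.06. Csf1, the macrophage growth factor, had 171 ± 25.8 CPM with vehicle and 212 ± 12.5 CPM with Mn-N/C (log2 fold change 0.31, SE 0.110). Il1b had 5.77 ± 0.892 and 8.83 ± 3.13 CPM (0.61, SE 0.281) and Osm, oncostatin M, 2.38 ± 1.29 and 4.09 ± 0.874 CPM (0.78, SE 0.403), and neither had an unadjusted p under 0.05. Of 13 receptor genes for the cytokines and prostaglandins of the members, 11 were tested. A lower mean with Mn-N/C was found in 10 of these, where 6375 of all 12800 tested genes had one. The median of the 11 was -0.27 against 0.00 over all genes, and -0.13 with the GC trend removed. At an unadjusted p under 0.05 in edgeR 1 was lower, Il1rap, the IL-1 receptor accessory protein (180 ± 19.4 and 149 ± 11.1 CPM, -0.27, SE 0.0972). Il6st, the gene of gp130 that Il6 and Lif share, did not have such a p (269 ± 4.65 and 237 ± 26.7 CPM, -0.18, SE 0.0894). Ptger2, a prostaglandin E2 receptor, was below its vehicle range in every Mn-N/C library, from counts of 9 to 25. Its log2 fold change was -0.84 (SE 0.371, unadjusted p = 0.0523 and adjusted p = 0.242 in edgeR). The groups did not overlap in 26.4% of all tested genes.

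Of 14 other receptor genes that signal to NF-kB, 13 were tested, with 1 gene higher and 1 gene lower (unadjusted edgeR p under 0.05), both of which DESeq2 called, and a median of -0.16. Tnfrsf12a, the TWEAK receptor Fn14, had 187 ± 23.0 CPM with vehicle and 245 ± 11.6 CPM with Mn-N/C (0.39, SE 0.0957). Tlr4, the endotoxin receptor, had 29.9 ± 6.43 and 20.1 ± 2.55 CPM (-0.57, SE 0.169), and Il1rl1, the IL-33 receptor, 25.7 ± 8.17 and 35.2 ± 4.16 CPM (0.45, SE 0.226). Of 35 other NF-kB target genes, 32 were tested, with 1 higher and 2 lower and a median of 0.05. These were Plaur, the urokinase receptor (0.23, SE 0.102), Tnfaip2 (-0.29, SE 0.0982) and Cflar, the gene of the apoptosis inhibitor c-FLIP (-0.16, SE 0.0658). Cd44, the hyaluronan receptor, stood at 0.07 (SE 0.0751).

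Downstream of the members, 7 of 8 genes of prostaglandin E2 synthesis were tested. A higher mean was found in 6, where 6425 of all 12800 tested genes had one. Of the 6, 1 had an unadjusted p under 0.05 in edgeR, Ptges2 (14.9 ± 2.97 and 19.9 ± 1.15 CPM, 0.41, SE 0.159). The synthases Ptges and Ptges3 stood at 0.13 (SE 0.0944) and 0.049 (SE 0.0766), and the prostaglandin transporter gene Slco2a1 at 0.19 (SE 0.144). Of 15 genes of IL-6 and LIF signalling through STAT3, 1 was higher and 3 lower, with a median of -0.09. Fosl1, a transcription factor gene, was at 0.42 (SE 0.141), Jak2, a receptor-associated kinase, at -0.56 (SE 0.191), and Ptpn2, a phosphatase of that pathway, at -0.30 (SE 0.123). Mcl1, a survival gene of the Bcl2 family, stood at -0.13 (SE 0.0627). Of 15 genes that bind or degrade AU-rich mRNA, 2 were higher and 4 lower, with a median of -0.18, which was -0.0044 with the GC trend removed. Zfp36l1, a decay factor, had 171 ± 6.61 CPM with vehicle and 133 ± 3.99 CPM with Mn-N/C (-0.37, SE 0.0674, adjusted p = 0.182 in edgeR). Hnrnpd, the gene of AUF1, had 276 ± 14.4 and 357 ± 25.0 CPM (0.37, SE 0.0781). DESeq2 called both. Rc3h1, the gene of roquin-1, stood at -0.27 (SE 0.0988), and Cnot1, the scaffold of the deadenylase complex, at -0.041 (SE 0.0625). No gene of any of these 10 lists passed the adjusted threshold in edgeR, and the lists were not tested as groups.

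The medians of these lists moved with single libraries. For the receptors of the member cytokines the median was -0.48 without Mn-N/C replicate 2, and nearer 0 at -0.090 without Mn-N/C replicate 3 and -0.16 without vehicle replicate 1. The median of the other receptors that signal to NF-kB was 0.068 without vehicle replicate 1 and -0.35 without vehicle replicate 2, and that of the genes of STAT3 signalling was 0.067 without vehicle replicate 1, 0.0079 without Mn-N/C replicate 3 and 0.025 with the length trend removed. For the other cytokines it was -0.20 without vehicle replicate 3 and 0.25 without vehicle replicate 1. The lists of subunits, inhibitors, IKK with its adaptors and other targets, with medians between -0.06 and 0.05, also changed sign when 1 library was left out. Only the medians of prostaglandin E2 synthesis (0.064 to 0.20), AU-rich decay (-0.24 to -0.10) and the receptors of the member cytokines kept their sign with each library left out.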

How the data were processed

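RNA of MC38 tumors was measured in 6 libraries, 3 per group, grouped by GEO's labels. Whole-number counts per gene were deposited by the authors without normalization, together with FPKM that the authors computed from gene length and library total. HISAT2 2.0 and the mouse build mm10 are listed in the submitters' processing notes, while the program that counted reads, its use of strand and its annotation were not given in the sources used here. Positions of genes are those in the deposited table.

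The quasi-likelihood test of edgeR 4.0.16 (R 4.3.3) was run on the counts, with TMM scaling, the default filterByExpr filter and a design of group alone, over 12800 genes, and p-values were adjusted over all of them by Benjamini-Hochberg. CPM was computed from TMM-scaled totals, of which 3 counts are 0.158 to 0.200 CPM per library. Il6, which the filter removed, was tested on log2(CPM + 0.5) with an exact permutation test. The edgeR test was checked on simulated counts, which carried no trend with GC content. No replicate pair agreed within sampling noise (chi-square per degree of freedom 6.31 to 25.7).

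The genes named are the 10 members, the partners in the 4 ratios, of each list the 3 tested genes with the smallest p and the gene with the highest mean, cell markers used as a check, and the 5 genes with the profile most like the members among those of at least 5 CPM. The members and lists were chosen with earlier results of these data known. Alternatives were DESeq2 1.42.0 (independent filtering at 0.05), RLE scaling, other filters, limma 3.58.1 on log2(FPKM + 1) or log2(FPKM + 0.1), a block for the replicate number, leaving out each library, and removal of each library's loess trend (span 0.5) on length or GC content. GC content was known for 12783 genes.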

Additional observations from a re-analysis of the deposited data

How the results depend on the processing

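No member passed the adjusted threshold under any setting run. Over all genes DESeq2 called 787 genes and edgeR 0, and leaving out 1 library gave 0 to 583 calls, the highest without vehicle replicate 2. Of 130 alternative values of the members, 122 kept their sign and 8 did not. With the GC trend removed the log2 fold change of Il1a was 0.010, that of Relb -0.027 and that of Ptgs2 0.29, and with the length trend removed that of Ptgs2 was 0.0016. Leaving out 1 library, Il1a ranged from -0.58 to 0.022, Nfkbia from -0.061 to 0.20 and Ptgs2 from -0.16 to 0.090, and the log2 difference of the ratio of Relb to Rela ranged from -0.023 to 0.12 and that of Ptgs2 to Ptgs1 from -0.28 to 0.011. The cause was not tested.

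For libraries with the same replicate number, the correlations of their deviations were -0.17, -0.02 and 0.19, against -0.14 to 0.18 for other pairs. The mean profile of the 9 tested members was 0.41, -0.019 and -0.31 in vehicle replicates 1 to 3. In the Mn-N/C replicates it was 0.35, -0.00018 and -0.44, in the same order. Whether libraries of the same number share more than that number was not tested. With the replicate block, edgeR called 0 genes and 0 members. The counts of Tnf, Il6 and Il1a, 4 to 31 per library, limit what can be said of them at this depth. Which differences could have been detected was not computed.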
